A study of Mus musculus with 9 samples.

Results

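The C/EBP transcription factors (CCAAT/enhancer-binding proteins) were followed through cultured mouse knee chondrocytes. Their genes were the rows of the deposited gene count table whose symbol is Cebpa, Cebpb, Cebpd, Cebpg, Cebpz or Ddit3, which gave 6 genes of the 56748 in the table. They were chosen by name with fold changes in these same 9 libraries already known, so their changes are given as a description, and the adjusted p-values below describe the fit and support nothing beyond it. The symbol Ddit3 also names a second row of 105 bases that had 0 counts in every library, and the other 6 rows all passed the filter on low counts. Libraries fell into 3 groups of 3. Cells in the first received interleukin-1β (IL-1β) together with recombinant SFRP5, which is secreted and can bind Wnt proteins. Cells in the second received IL-1β alone, and those in the third, the control, received neither. No group received SFRP5 alone, and all 3 groups were wild-type chondrocytes freed from knee cartilage with collagenase D and grown in serum. Dose, time, animal age and strain are not given in the labels, nor whether the 3 libraries of a group came from separate animals or cultures, so p-values measure the spread between libraries, which may be technical.

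C/EBP proteins are basic leucine zipper (bZIP) factors: a zipper joins them in pairs, with each other or with related bZIP proteins, and the basic region before it touches DNA. C/EBPβ and C/EBPδ (Cebpb and Cebpd) are the family members best known for being induced by interleukin-1 and interleukin-6 in the acute phase response, whereas C/EBPα (Cebpa) is best known for driving the maturation of fat, liver and myeloid cells. C/EBPγ (Cebpg) lacks an activation domain of its own and pairs with ATF4 and other bZIP proteins. CHOP (Ddit3) is induced by endoplasmic reticulum stress, and the product of Cebpz, despite its name, has no leucine zipper and is related to a yeast ribosome assembly factor. In cartilage, C/EBPβ is known as an activator of matrix metalloproteinase genes.

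The stretches below show which of these genes carry the basic region signature of the C/EBP family. They are the coding DNA of the basic region's most conserved part, taken from GENCODE M21 transcripts, with the codons of its asparagine, of its alanine and valine, and of its serine and arginine in capitals.
Cebpa: AACaacatcGCGGTGcgcaagAGCCGA
Cebpb: AACaacatcGCGGTGcgcaagAGCCGC
Cebpd: AACaacatcGCTGTGcgcaagAGCCGC
Cebpg: AACaatatgGCGGTGaaaaaaAGCCGG
Cebpe: AACaacatcGCGGTGcgcaagAGCCGG
The stretch lay at residues 293 to 301 of 359 in the longest reading frame of Cebpa, 232 to 240 of 296 in Cebpb, 201 to 209 of 268 in Cebpd and 72 to 80 of 150 in Cebpg. Neither Ddit3, with 168 residues, nor Cebpz, with 1052, held a match to this pattern. The table's own transcription factor column placed 5 of the 6 genes in the bZIP family and left out Cebpz. Cebpe (ENSMUSG00000052435), the remaining classical family gene, is shown for comparison: it had 0 counts in all 9 libraries, which allows up to 0.135 to 0.195 CPM (counts scaled to library size), the worth of 3 counts in each library.

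On the GRCm38 assembly (GENCODE M21) the genes are scattered. Cebpb (ENSMUSG00000056501) is at chr2:167688915-167690418 on the plus strand and has 1 exon. Cebpd (ENSMUSG00000071637) is at chr16:15887286-15891031 on the plus strand, and Ddit3 (ENSMUSG00000025408) at chr10:127290774-127296288 on the plus strand. Cebpa (ENSMUSG00000034957) at chr7:35119293-35121928 on the plus strand and Cebpg (ENSMUSG00000056216) at chr7:35046422-35056573 on the minus strand are neighbours, 62.7 kb apart. Cebpz (ENSMUSG00000024081) is at chr17:78919006-78937066 on the minus strand, in up to 16 exons, and overlaps the opposite-strand gene Cebpzos over 1301 bases.

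Promoter sequence was held for 4 of the 6 genes (RefSeq, GRCm38.p6): Cebpa, Cebpb, Cebpg and Ddit3. Cebpb and Ddit3 are shown because they changed in opposite directions with IL-1β (below). Each sequence is the 250 bases before the start, on the plus strand, 5′ to 3′. Capitals mark TGACG, the core of the cyclic AMP response element, on either strand, in Cebpb (chr2:167688665-167688914), and in Ddit3 (chr10:127290543-127290792) the AP-1 pattern TGANTCA followed by CCAAT read on the reverse strand.
Cebpb: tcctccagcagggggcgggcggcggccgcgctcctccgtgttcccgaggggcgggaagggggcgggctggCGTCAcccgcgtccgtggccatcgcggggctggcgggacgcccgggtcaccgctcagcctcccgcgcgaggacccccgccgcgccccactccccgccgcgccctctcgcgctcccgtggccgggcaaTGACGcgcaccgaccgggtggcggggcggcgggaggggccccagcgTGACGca
Ddit3: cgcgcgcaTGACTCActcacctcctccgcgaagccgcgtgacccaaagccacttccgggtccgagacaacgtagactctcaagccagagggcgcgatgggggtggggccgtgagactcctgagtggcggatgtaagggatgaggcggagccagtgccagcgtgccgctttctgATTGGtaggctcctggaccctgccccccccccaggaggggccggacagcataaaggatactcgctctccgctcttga
The Cebpb window of 300 bases, which adds 50 bases after the start, held TGACG 3 times, at positions -180, -53 and -7 relative to the start, and TATAAA at 22. The Ddit3 window held TGANTCA at -242 and CCAAT on the reverse strand at -77. Among 32851 mouse promoters of the same length, searched on both strands, TGACG was present in 20.8%, TGANTCA in 7.81%, CCAAT in 37.4% and TATAAA in 13.6%. Cebpa held TATAAA at -30, and Cebpg held CCAAT on the reverse strand at -89 and -28. None of the 4 windows held TTGCNNAA (the C/EBP pattern, in 10.8% of promoters), TGATGNAA (C/EBP with ATF, 3.97%), TGACGTCA (which contains TGACG, 1.79%), TTCNNNGAA (STAT, 8.3%), the κB pattern (8.46%) or the endoplasmic reticulum stress element (0.119%). GC content was 80.7% in Cebpb, 71.7% in Cebpg, 67.3% in Cebpa and 60.7% in Ddit3, against a median of 52.7% over all these promoters. These letter matches are a description of the windows.

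Total counts were 15795985 to 20688963 per library. Chondrocyte markers were present throughout: the 8 listed genes, Col2a1 and Acan among them, summed to 26973 to 28306 CPM with IL-1β and SFRP5, 21321 to 22462 CPM with IL-1β and 105771 to 108087 CPM in control libraries. Macrophage markers (10 genes) summed to 37.4 to 43.0 CPM with IL-1β and SFRP5, 55.3 to 59.2 CPM with IL-1β and 16.5 to 18.1 CPM in control libraries. Of 6 tested, 4 rose and 1 fell with IL-1β against control. Cd14 averaged 27.4 CPM with IL-1β and 1.25 CPM in control, and Mrc1 11.2 and 1.62 CPM. Laptm5 went the other way (0.868 and 3.24 CPM), and Lyz2 was level (7.83 and 7.82 CPM). Ptprc, Adgre1, Itgam and Aif1 were below the filter. Neutrophil markers (8 genes, with Ly6g, Ngp and S100a9 at 0 in every library) summed to 4.83 to 7.22 CPM with IL-1β and SFRP5, 5.83 to 7.21 CPM with IL-1β and 0 to 0.152 CPM in control. Fat cell markers (6 genes) summed to 4.19 to 4.73 CPM with IL-1β and SFRP5, 6.26 to 7.23 CPM with IL-1β and 13.9 to 15.7 CPM in control. Synovial fibroblast markers (6 genes) summed to 1119 to 1152 CPM with IL-1β and SFRP5, 863 to 919 CPM with IL-1β and 188 to 190.3 CPM in control, and Prg4, which superficial chondrocytes also express, supplied a mean of 845 CPM of this with IL-1β and SFRP5, 475 CPM with IL-1β and 65.4 CPM in control. The synovial markers did not all move alike: of 5 tested, 2 rose and 2 fell with IL-1β against control (median log2 fold change 0.19). Pdpn averaged 384 CPM with IL-1β and 34.3 CPM in control. Thy1 went the other way (3.82 and 18.5 CPM), as did Pdgfra (25.4 and 65.8 CPM). The marker sums moved with the groups, and their part in the C/EBP results was not tested. In such bulk libraries, fewer cells of a type and less RNA per cell cannot be told apart.

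Across all 15502 genes tested, IL-1β against control changed 78.9% at an adjusted p under 0.05 (38.5% rose and 40.4% fell). IL-1β with SFRP5 against IL-1β changed 31.3% (15.6% rose, 15.7% fell), and IL-1β with SFRP5 against control changed 76.3% (37.3% rose, 39% fell). Against these shares, 6 of the 6 C/EBP genes changed with IL-1β (4 rose, 2 fell), 3 of 6 changed when SFRP5 was added to IL-1β (3 rose, and 3 were not called), and 5 of 6 differed between IL-1β with SFRP5 and control (4 rose, 1 fell). A count of 6 of 6 is little above a background of 78.9% and is no result about these genes. The IL-1β libraries enter both the first and the second comparison, so those changes are not independent of each other.

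**Figure D1:**
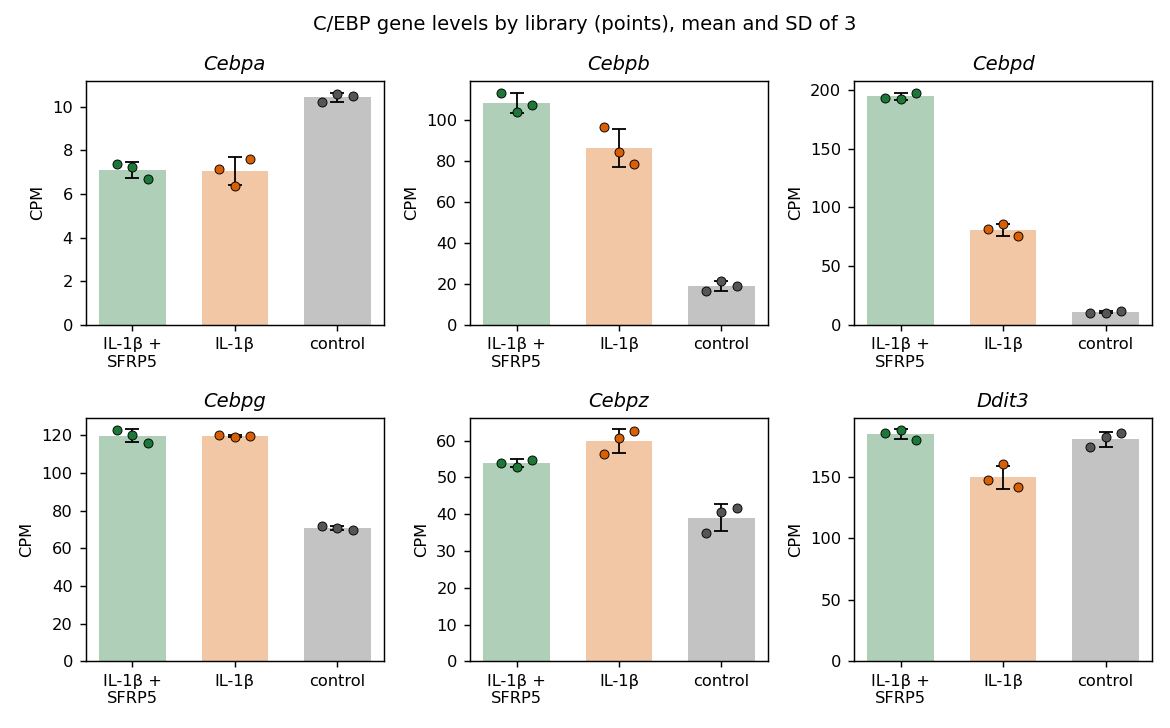
Level of each C/EBP gene in CPM (y axis) in the 3 groups (x axis); points are libraries, bars the mean and error bars the SD of 3 libraries. Cebpd averaged 195 CPM with IL-1β and SFRP5, 80.9 CPM with IL-1β and 10.6 CPM in control libraries, while Ddit3 was lowest in the IL-1β libraries.

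Cebpd, an early acute phase factor gene, changed more than the other 5 genes in each comparison. It had 193, 193 and 198 CPM with IL-1β and SFRP5, 81.6, 85.4 and 75.7 CPM with IL-1β alone, and 9.85, 10.2 and 11.8 CPM in control libraries. The 3 groups did not overlap, and every library with SFRP5 stood above every library with IL-1β alone. Among all genes tested, 80% did not overlap between IL-1β and control, in one direction or the other. That share was 40.8% between IL-1β with SFRP5 and IL-1β, and 78.2% between IL-1β with SFRP5 and control. These shares are the background for each gene below, so groups lying apart from control are no trait of these genes. IL-1β raised Cebpd 7.64-fold over control (log2 fold change 2.93 ± 0.07, SE, 95% interval 2.80 to 3.07, adjusted p = 4.29e-23), which ranked 811 from the top among the 15502 genes. Added SFRP5 raised it a further 2.41-fold over IL-1β alone (log2 fold change 1.27 ± 0.05, 95% interval 1.16 to 1.37, adjusted p = 4.67e-16), at rank 333. IL-1β with SFRP5 thus stood 18.4-fold above control (log2 fold change 4.20 ± 0.06).

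Cebpb moved the same way but less. Its levels were 113, 104 and 107 CPM with IL-1β and SFRP5, 96.4, 84.5 and 78.3 CPM with IL-1β, and 16.3, 21.2 and 19.0 CPM in control libraries. Again the 3 groups did not overlap, although the gap between the lowest SFRP5 library and the highest IL-1β library was small beside the gap to control. IL-1β raised Cebpb 4.57-fold (log2 fold change 2.19 ± 0.08, 95% interval 2.03 to 2.35, adjusted p = 7.81e-19). Added SFRP5 raised it 1.25-fold over IL-1β (log2 fold change 0.33 ± 0.07, 95% interval 0.19 to 0.46, adjusted p = 0.000422), an interval that lies below that of Cebpd for the same comparison. IL-1β with SFRP5 stood 5.73-fold above control.

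Cebpa, the family member of differentiated fat and liver cells, went the other way at a low level. It had 7.40, 7.22 and 6.67 CPM with IL-1β and SFRP5, 7.17, 6.36 and 7.63 CPM with IL-1β, and 10.2, 10.6 and 10.5 CPM in control libraries, from 105 to 235 counts per library. The IL-1β and SFRP5 libraries overlapped each other, and all 6 lay below the 3 controls. Cebpa fell to 0.676 of control with IL-1β (log2 fold change -0.56 ± 0.12, adjusted p = 0.000155). The change with added SFRP5 was 0.01 on the log2 scale, with a 95% interval of -0.26 to 0.27 (adjusted p = 0.97), so an increase or decrease within that interval was not detectable.

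Cebpg, the partner without an activation domain, was raised by IL-1β and had nearly the same level with SFRP5. Its levels were 123, 120.1 and 116 CPM with IL-1β and SFRP5, 120.1, 119 and 119 CPM with IL-1β, and 71.9, 71.0 and 69.8 CPM in control libraries. The first 2 groups overlapped and both lay above control. Cebpg rose 1.69-fold with IL-1β (log2 fold change 0.76 ± 0.04, adjusted p = 3.26e-14). The change with added SFRP5 was 0.00 on the log2 scale with a 95% interval of -0.09 to 0.09 (adjusted p = 0.978), the narrowest interval of the 6 genes for that comparison. Its neighbour on chromosome 7, Cebpa, moved in the opposite direction with IL-1β.

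Cebpz, the nucleolar member, had 53.9, 52.8 and 54.9 CPM with IL-1β and SFRP5, 56.4, 60.7 and 62.6 CPM with IL-1β, and 34.9, 40.7 and 41.7 CPM in control libraries. It rose 1.53-fold with IL-1β (log2 fold change 0.62 ± 0.06, adjusted p = 1.38e-09) and stayed 1.38-fold above control with SFRP5 (log2 fold change 0.46). Every SFRP5 library lay below every IL-1β library, as was so in one direction or the other for 40.8% of all genes tested. The log2 fold change of -0.15 ± 0.06 (95% interval -0.28 to -0.03) gave an adjusted p of 0.0551, short of the threshold. Leaving out IL-1β library 1 gave -0.20 (adjusted p = 0.0259) and leaving out control library 1 gave -0.15 (adjusted p = 0.0333), so this gene lay at the edge of a call. Cebpzos, which shares 1301 bases with Cebpz on the other strand, averaged 8.73 CPM with IL-1β and SFRP5, 7.97 CPM with IL-1β and 10.9 CPM in control libraries, and fell with IL-1β (log2 fold change -0.45 ± 0.13, adjusted p = 0.00223). The kit keeps strand, but no source used here says how the counting treated it, so reads in the shared bases cannot be assigned to either gene with certainty.

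Ddit3, which encodes CHOP, was lower with IL-1β alone than in either other group. It had 186, 188 and 180 CPM with IL-1β and SFRP5, 147, 160.0 and 141 CPM with IL-1β, and 174, 182 and 185 CPM in control libraries. The IL-1β libraries lay below all others, while the SFRP5 and control libraries overlapped. Ddit3 fell to 0.829 of control with IL-1β (log2 fold change -0.27 ± 0.05, adjusted p = 9.89e-06), and was 1.23-fold higher with SFRP5 added than with IL-1β alone (log2 fold change 0.30 ± 0.05, 95% interval 0.21 to 0.40, adjusted p = 1.32e-05). IL-1β with SFRP5 against control gave 0.03 on the log2 scale, with a 95% interval of -0.06 to 0.13 (adjusted p = 0.528). With upper-quartile scaling that value turned to -0.10 (adjusted p = 0.0497).

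**Figure D2:**
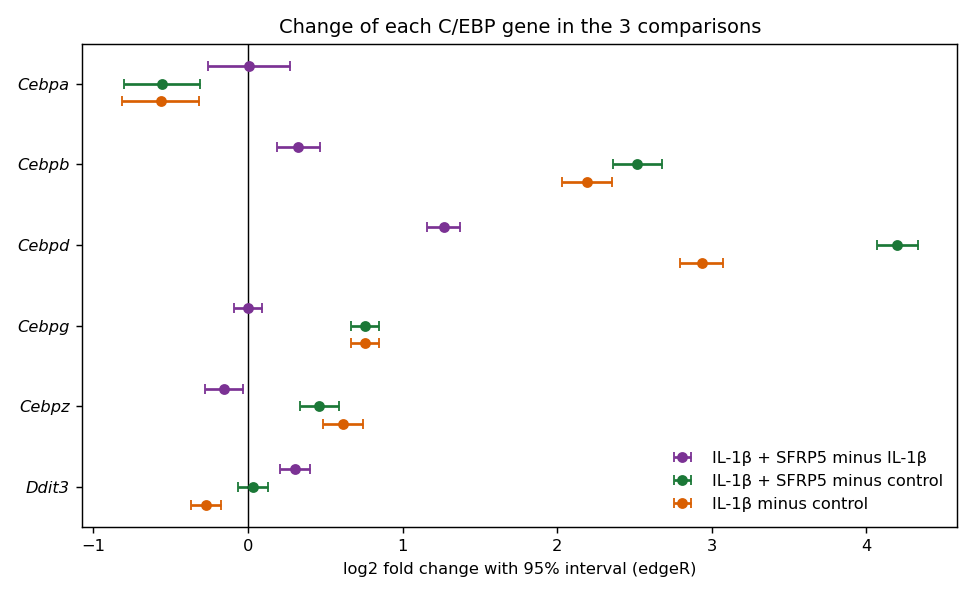
Log2 fold change of each C/EBP gene (x axis) with its 95% interval from edgeR, for the 3 comparisons marked by colour. Cebpd at 2.93, 1.27 and 4.20 stood apart from the other genes in each comparison, and the intervals of Cebpa and Cebpg for SFRP5 added to IL-1β spanned 0.

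Divided by gene length, so that genes can be set against each other, the 6 genes summed to 267 ± 3.95 CPM per kilobase with IL-1β and SFRP5, 203 ± 9.28 with IL-1β and 146 ± 5.66 in control libraries (SD, n = 3 each). Ddit3 supplied 40.3% of it with IL-1β and SFRP5, 43.0% with IL-1β and 72.3% in control. Cebpb supplied 26.9% with IL-1β and SFRP5, 28.2% with IL-1β and 8.59% in control, and Cebpd 19.5% with IL-1β and SFRP5, 10.6% with IL-1β and 1.94% in control. In control libraries the order by mean level per kilobase was Ddit3 (105), Cebpg (12.6), Cebpb (12.5), Cebpz (8.39), Cebpa (3.96) and Cebpd (2.83), with Cebpg and Cebpb closer than their SDs of 0.193 and 1.62. With IL-1β it was Ddit3 (87.2), Cebpb (57.4), Cebpd (21.6), Cebpg (21.3), Cebpz (12.9) and Cebpa (2.68), with Cebpd and Cebpg closer than the Cebpd SD of 1.31. With IL-1β and SFRP5 the order was Ddit3 (108), Cebpb (71.9), Cebpd (51.9), Cebpg (21.3), Cebpz (11.6) and Cebpa (2.69), and no neighbours lay within their SDs. These shares and orders rest on gene length. Undivided, with IL-1β and SFRP5 Cebpd took 29.1% of the sum, Ddit3 27.6%, Cebpg 17.9% and Cebpb 16.2%, so Cebpd came before Ddit3, and Cebpb after Cebpg. Undivided, Cebpb and Cebpd took 17.1% and 16.1% with IL-1β, behind Ddit3 (29.7%) and Cebpg (23.8%), and 5.70% and 3.21% in control.

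Cebpa, Cebpb and Cebpd were set against each other in the same way. Per kilobase, Cebpd stood at 18.4, 18.8 and 20.9 times Cebpa with IL-1β and SFRP5, at 8.01, 9.46 and 6.98 times Cebpa with IL-1β, and at 0.679, 0.674 and 0.789 times Cebpa in control libraries. In control the order of this pair rests on gene length, since the undivided means were 10.6 ± 1.04 CPM for Cebpd and 10.4 ± 0.212 CPM for Cebpa, within their spread. Cebpb stood at 26.7 ± 1.52 times Cebpa with IL-1β and SFRP5, 21.6 ± 3.14 times with IL-1β and 3.16 ± 0.348 times in control (SD, n = 3 each). The proportion of Cebpd to Cebpb also differed between groups: per kilobase Cebpd was 0.723 ± 0.034 of Cebpb with IL-1β and SFRP5, 0.378 ± 0.034 with IL-1β and 0.228 ± 0.031 in control libraries, with no overlap between groups. Which of them was higher also rests on length: undivided, Cebpd and Cebpb averaged 195 and 108 CPM with IL-1β and SFRP5, 80.9 and 86.4 CPM with IL-1β, and 10.6 and 18.8 CPM in control. The ratio of Ddit3 to Cebpb per kilobase was 1.5 ± 0.080 with IL-1β and SFRP5, 1.53 ± 0.169 with IL-1β and 8.47 ± 0.905 in control, so the SFRP5 and IL-1β libraries did not differ beyond their spread. RNA levels do not give the amounts of protein, and C/EBP proteins are also regulated after translation.

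**Figure D3:**
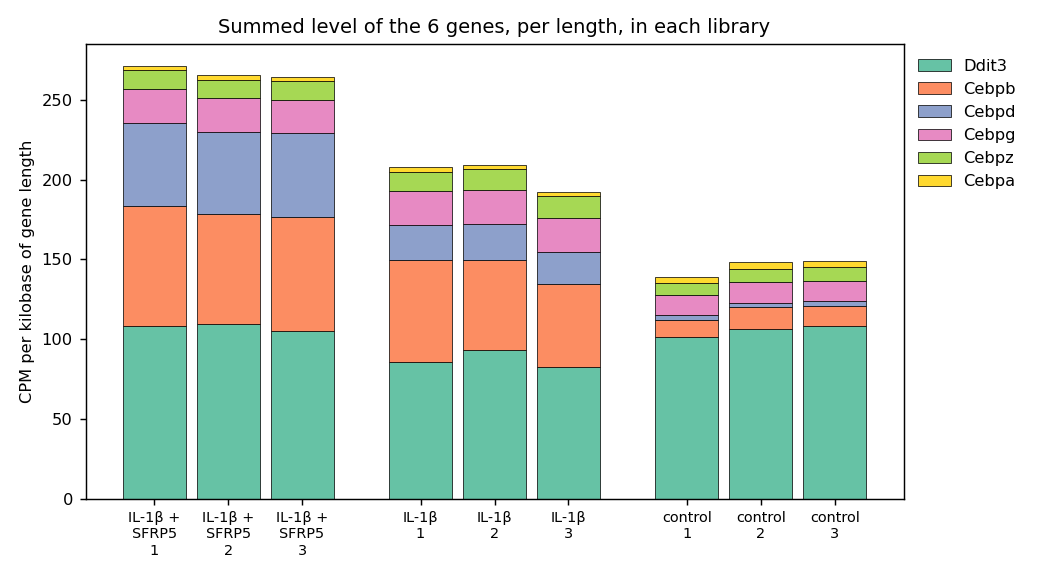
Summed level of the 6 C/EBP genes in CPM per kilobase of gene length (y axis) in each of the 9 libraries (x axis), stacked by gene. Ddit3 made up most of the control bars (72.3% on average), whereas Cebpb and Cebpd together filled much of the bars with IL-1β.

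Patterns over the 9 libraries were compared by the root mean square difference of centred log2 CPM. Between C/EBP genes the smallest was 0.148 for Cebpg and Cebpz, followed by 0.262 for Cebpa and Ddit3, and the largest was 2.01 for Cebpa and Cebpd. Cebpb and Cebpd, both raised by each treatment, were 0.693 apart. Among 13143 named genes the pattern nearest to Cebpd was that of Selenbp1 at 0.155, a selenium-binding protein gene (log2 fold change 3.24 with IL-1β against control and 1.09 with SFRP5 against IL-1β). Prg4, which encodes the joint lubricant lubricin, came next at 0.231, and Bcl3, an IκB family gene, at 0.260. Nearest to Cebpb were Vstm5 at 0.0832, the phosphatase gene Dusp1 at 0.107 and the mannosidase gene Man1a at 0.114. Cebpg lay nearest to Scd2 at 0.0286, Ptp4a2 at 0.0302 and Capzb at 0.0339, and Cebpz to Kdm1a at 0.0459, Dars at 0.0528 and Sar1b at 0.0546. Cebpa lay nearest to Psmd6 at 0.0495, Fbxo3 at 0.0506 and Hnrnpr at 0.0562, and Ddit3 to G6pc3 at 0.0367, Ndufa8 at 0.0445 and Col6a2 at 0.0460. The nearest distance was larger for Cebpd than for the other 5 genes. This distance is not scaled to the size of change, which was largest for Cebpd, so it does not mark a pattern of its own.

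Other bZIP genes gave a background. Of the 48 remaining rows in the table's bZIP family, 41 were tested: 25 rose and 13 fell with IL-1β against control, and 6 rose and 11 fell with SFRP5 against IL-1β. Their median log2 fold changes were 0.70 and 0.02, against 0.69 and 0.16 for the C/EBP genes and -0.03 and 0.01 for all genes. The lists that follow, like the C/EBP genes, were drawn up with earlier results of these libraries known, so their counts are descriptions. The shares of all genes tested are the background for each count. With IL-1β against control 38.5% rose and 40.4% fell, and with SFRP5 against IL-1β 15.6% rose and 15.7% fell.

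Of 9 tested bZIP genes whose products pair with C/EBP proteins, 6 rose and 2 fell with IL-1β against control (median 0.59). When SFRP5 was added, 4 fell and 5 were not called (median -0.26). Atf3, a stress-induced repressor, averaged 306 ± 22.1 CPM with IL-1β and SFRP5, 415 ± 29.6 CPM with IL-1β and 29.1 ± 1.85 CPM in control libraries (SD, n = 3 each). Its log2 fold changes were 3.83 ± 0.06 with IL-1β and -0.44 ± 0.05 with SFRP5 against IL-1β. Jun behaved alike (1.90 ± 0.08 and -0.63 ± 0.07), as did Atf4, the partner of C/EBPγ (1.08 ± 0.04 and -0.26 ± 0.04), whereas Fos fell in both comparisons (-2.97 ± 0.17 and -0.66 ± 0.25, adjusted p = 0.0465 for the second). These directions with added SFRP5 were opposite to those of Cebpb, Cebpd and Ddit3. Among 4 close relatives that bind similar DNA, the repressor gene Nfil3 rose with IL-1β (3.31 ± 0.08). Dbp and Tef, of the circadian PAR subfamily, fell with IL-1β (-3.57 ± 0.13 and -2.16 ± 0.08). Hlf was also called lower (-2.45, a call absent with DESeq2), at means of 0.122 CPM with IL-1β and 0.674 CPM in control. It passed the filter only through control, so its fall was fixed by it. Tef rose with SFRP5 against IL-1β (0.43 ± 0.09) and the other 3 were not called.

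Of 12 genes for proteins that modify or degrade C/EBP proteins, 6 rose and 4 fell with IL-1β against control (median 0.14), and with upper-quartile scaling 6 rose and 6 fell (median -0.00). The ubiquitin ligase gene Siah2 rose (1.39 ± 0.08) and the kinase gene Gsk3b rose (1.05 ± 0.05). Trib2 and Trib1, whose products direct C/EBPα to degradation, fell (-2.23 ± 0.16 and -0.92 ± 0.08). Added SFRP5 raised 2 and lowered 3 of them against IL-1β (median -0.03): Rps6ka1, a kinase that phosphorylates C/EBPβ, rose (0.53 ± 0.09) and so did Trib3, a CHOP target (0.29 ± 0.04), while Trib1 fell further (-0.41 ± 0.09).

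Of 12 genes for factors that induce C/EBP genes or act with them, 10 rose and 2 fell with IL-1β against control (median 1.23). Nfkbiz, which encodes the nuclear cofactor IκBζ, averaged 255 ± 40.1 CPM with IL-1β and SFRP5, 170.4 ± 5.41 CPM with IL-1β and 10.2 ± 1.01 CPM in control libraries (SD, n = 3 each). It rose in both comparisons (4.07 ± 0.09 with IL-1β, 0.58 ± 0.07 with SFRP5 against IL-1β), as Cebpb and Cebpd did. Klf5 rose with IL-1β (2.37 ± 0.08), while the receptor gene Il1r1 fell (-0.93 ± 0.06) and Egr2 fell (-0.87). With SFRP5 against IL-1β, 4 rose and 4 fell (median 0.05). Il1r1 (0.59 ± 0.06) and Klf4 (0.36 ± 0.05) rose beside Nfkbiz, and Il6 (-0.70 ± 0.05), Nfkb1 (-0.30 ± 0.04) and Rela (-0.25 ± 0.05) fell. Stat3, a known activator of the Cebpd promoter, gave 0.10 ± 0.04 with an adjusted p of 0.0572.

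All 16 tested inflammatory genes known as C/EBP targets rose with IL-1β against control, of 18 listed. Their median log2 fold change was 9.98, or 9.05 with 3 genes absent from control libraries set at their bound. Csf3, Saa1 and Saa2 had 0 counts over the control libraries, Il6 had 1 and Nos2 had 5. Such genes passed the filter only through the groups with IL-1β, so their rise over control was fixed by it. The count of 16 and the median are therefore descriptions only. With SFRP5 against IL-1β, 2 of the 16 rose, 8 fell and 6 were not called (median -0.38). The 2 that rose were acute phase genes: Lcn2 averaged 9916 ± 520.1 CPM with IL-1β and SFRP5, 8460 ± 293 CPM with IL-1β and 20.4 ± 1.17 CPM in control libraries, and Hp 176 ± 4.52 CPM with IL-1β and SFRP5, 121 ± 8.30 CPM with IL-1β and 10.6 ± 1.15 CPM in control (SD, n = 3 each). Their log2 fold changes with SFRP5 against IL-1β were 0.23 ± 0.04 and 0.55 ± 0.05. Other acute phase genes of the list did not rise with them. Saa3 averaged 7156 ± 259 CPM with IL-1β and SFRP5 and 13037 ± 573 CPM with IL-1β, and C3 1176 ± 90.0 and 1735 ± 92.2 CPM. Saa1, Saa2 and Orm1 averaged 22.2, 22.7 and 1.62 CPM with IL-1β and SFRP5, and 25.4, 21.5 and 1.26 CPM with IL-1β. The 3 that fell most were Csf3, a neutrophil growth factor gene (-1.83 ± 0.13), Ptgs2, the inducible cyclooxygenase gene (-1.23 ± 0.03), and Ccl2, a monocyte chemokine gene (-1.11 ± 0.04). Csf3 averaged 7.96 ± 1.66 CPM with IL-1β and SFRP5 and 28.6 ± 4.08 CPM with IL-1β, with 0 counts in control libraries. Nos2, the inducible nitric oxide synthase gene, averaged 2603 CPM with IL-1β and SFRP5 and 2505 CPM with IL-1β, with a log2 fold change of 0.06 that did not pass the test. With SFRP5 against IL-1β, 50% of the tested targets fell and 12.5% rose, against 15.7% and 15.6% of all genes tested. Cebpb and Cebpd both rose there, and any link between them and the targets was not tested.

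Fat cell genes known as C/EBPα targets mostly fell with IL-1β against control, 7 of 8 tested, with a median of -2.30. The other 4 listed genes were below the filter. Several tested ones were low even in control: Adipoq averaged 2.54 CPM, Cd36 2.62, Plin1 1.87 and Cfd 1.55, while Lpl averaged 73.1 CPM. Cfd, Plin1 and Adipoq had 3, 0 and 25 counts over the IL-1β libraries. They passed the filter only through control, so their fall was fixed by it. The count of 7 and the median of -2.30 include them and are therefore descriptions only. Dgat2, a triglyceride synthesis gene, was the exception (2.52 ± 0.05). With SFRP5 against IL-1β, Pparg (0.70 ± 0.20), which encodes the fat cell nuclear receptor, and Dgat2 (0.30 ± 0.05) rose and Fabp4 fell (-0.63 ± 0.15). The Pparg levels were low, at 3.74 CPM with IL-1β and SFRP5 and 2.30 CPM with IL-1β. Plin1 had 0 counts with IL-1β alone, so its fitted value is no measure of size. Among cartilage genes reported as regulated by C/EBPβ, 2 rose and 3 fell with IL-1β of 6 tested (median -0.71, mean 1.52). Mmp3 averaged 17338 ± 68.7 CPM with IL-1β and SFRP5, 33945 ± 737 CPM with IL-1β and 1.83 ± 0.471 CPM in control libraries. Mmp13, the main collagenase gene of cartilage breakdown, averaged 3115 ± 25.9 CPM with IL-1β and SFRP5, 4119 ± 85.6 CPM with IL-1β and 32.9 ± 2.71 CPM in control (SD, n = 3 each). Both fell with SFRP5 against IL-1β (-0.97 ± 0.03 and -0.40 ± 0.04). Col2a1, the type II collagen gene, fell with IL-1β (-2.27 ± 0.03) and rose with SFRP5 against IL-1β (0.43 ± 0.03). Cdkn1c, a cell cycle inhibitor gene, averaged 2.02 ± 0.179 CPM with IL-1β and SFRP5, 1.02 ± 0.444 CPM with IL-1β and 331 ± 5.51 CPM in control, and followed the same 2 directions (-8.35 ± 0.10 and 1.01 ± 0.22).

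Around CHOP, 9 of 17 genes of the endoplasmic reticulum and integrated stress response rose with IL-1β against control and 5 fell (median 0.47), and with upper-quartile scaling 9 rose and 8 fell (median 0.32). Ero1a, an oxidase gene and CHOP target, rose (3.10 ± 0.04), and so did Ppp1r15a (1.53 ± 0.05), whose product reverses the translation block. Eif2ak3, which encodes the stress kinase PERK, fell (-2.03 ± 0.07), and so did Chac1 (-0.78 ± 0.05), a glutathione-degrading enzyme gene. Of the 17, 3 rose and 9 fell with SFRP5 against IL-1β (median -0.15). Trib3, Eif2ak3 (0.29 ± 0.08) and Bbc3 (0.26 ± 0.08), a cell death gene, rose as Ddit3 did. Chac1 (-0.49 ± 0.06), Ero1a (-0.43 ± 0.03) and Dnajb9 (-0.34) fell, against the direction of Ddit3. Of 12 amino acid and glutathione genes known as ATF4 and C/EBPγ targets, 5 rose and 3 fell with IL-1β against control (median 0.03). With upper-quartile scaling 5 rose and 6 fell there (median -0.11). Of the 12, 6 fell and 6 were not called with SFRP5 against IL-1β (median -0.14). Slc7a11, the cystine transporter gene, averaged 312 ± 11.9 CPM with IL-1β and SFRP5, 1422 ± 12.1 CPM with IL-1β and 27.7 ± 1.08 CPM in control libraries (SD, n = 3 each). Gclm and Gclc, the glutathione synthesis genes, also rose with IL-1β (2.89 ± 0.05 and 4.14 ± 0.05) and fell with SFRP5 against IL-1β (-1.37 ± 0.05 and -0.85 ± 0.04), while Cebpg did not pass the test there.

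Cebpz was set beside 18 nucleolar ribosome assembly genes, of which 11 rose and 4 fell with IL-1β against control (median 0.34). Compared with IL-1β alone, added SFRP5 left 10 lower and 8 not called (median -0.16), next to -0.15 for Cebpz itself. Only 7 were called lower with upper-quartile scaling (median -0.15), and 7 with DESeq2 (median -0.17). Nop14 rose with IL-1β (0.93 ± 0.05) and fell with SFRP5 against IL-1β (-0.43 ± 0.05). Pes1 (0.84 ± 0.05) and Noc3l (0.77 ± 0.06) rose with IL-1β, and Nop58 (-0.36 ± 0.04) and Npm1 (-0.32 ± 0.04) fell with SFRP5 against IL-1β. Rrs1 went against the majority with IL-1β (-0.70 ± 0.08).

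**Figure D4:**
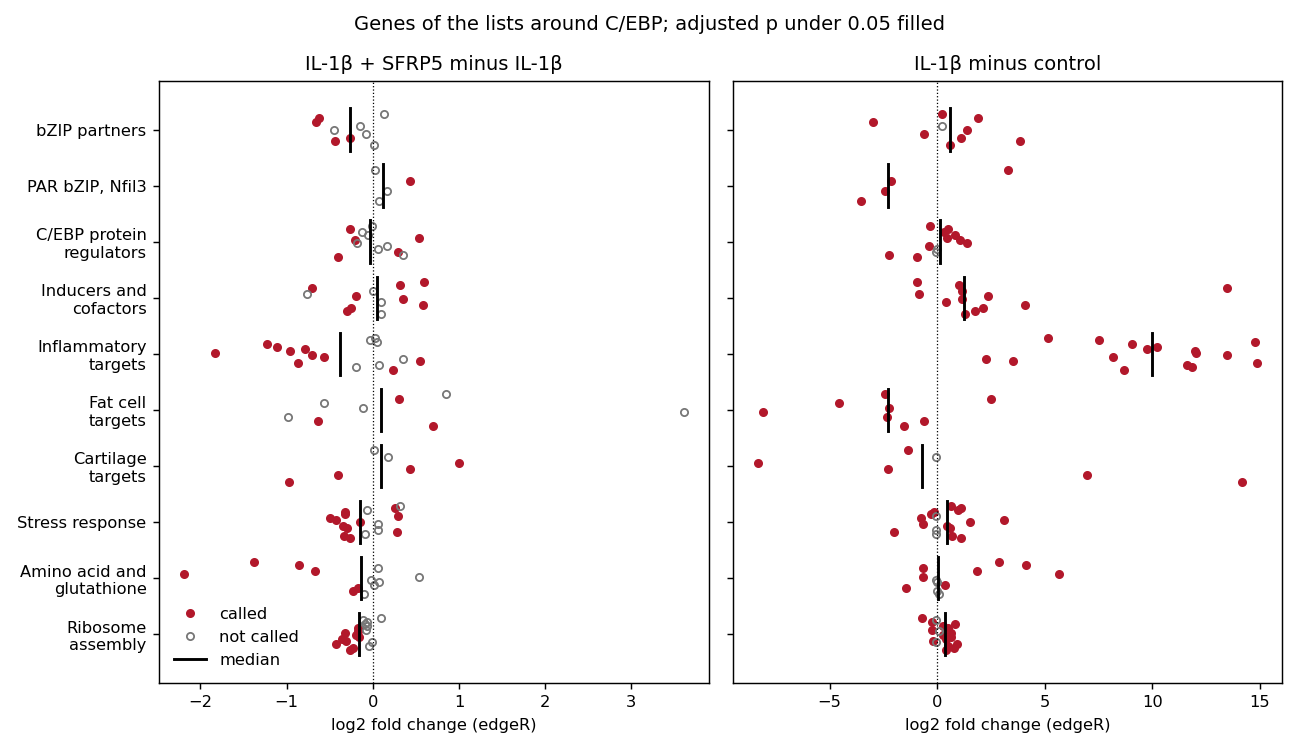
Log2 fold changes from edgeR (x axes) of the genes in 10 lists around C/EBP (rows), for IL-1β with SFRP5 minus IL-1β on the left and IL-1β minus control on the right; filled points passed an adjusted p of 0.05 and bars are medians. Inflammatory targets lay right of 0 with IL-1β (median 9.98), which the filter fixed for those nearly absent from control. With SFRP5 added the inflammatory targets lay mostly left of 0 (median -0.38). The far point among fat cell targets on the left is Plin1, which had 0 counts with IL-1β alone.

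IL-1β with SFRP5 was set against the same 3 control libraries as IL-1β alone, so the 2 comparisons share them. For IL-1β with SFRP5 against control, 37.3% of all genes tested rose and 39% fell, the background for these counts. In it 6 rose and 2 fell of 9 bZIP partners, and 10 rose and 2 fell of 12 inducers. All 16 tested inflammatory targets rose, where the filter again fixed the rise of those nearly absent from control. Of 17 stress genes, 10 rose and 6 fell (8 and 7 with upper-quartile scaling). Of 18 ribosome assembly genes, 9 rose and 5 fell (7 and 7 with upper-quartile scaling). Among the C/EBP genes, Cebpg stood at 0.76 and Cebpz at 0.46 on the log2 scale, Cebpa was lower at -0.56 (adjusted p = 0.000185), and Ddit3 was not called.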

How the data were processed

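Counts per gene came from RNA of 9 libraries, 3 per group, prepared with a strand-keeping kit and sequenced as paired reads. Per the labels, the authors trimmed reads with fastp, aligned them to mouse mm10 with STAR and quantified them with RSEM; no version or strand setting is named. The deposited values are whole-number counts per gene, and the table's positions differ from GRCm38, so positions here come from GENCODE M21. From the counts, 1 edgeR 4.0.16 quasi-likelihood fit (R 4.3.3, limma 3.58.1, TMM scaling, filterByExpr by group with a minimum count of 10) covered all 9 libraries and 15502 genes, with Benjamini-Hochberg adjustment over all of them and calls at an adjusted p under 0.05. The common coefficient of variation between libraries was 4.97%. CPM are TMM-scaled, and levels per kilobase divide them by the table's gene length. Replicate pairs differed beyond sampling noise. The fit was tested on simulated counts. The members and lists were chosen with earlier results of these data known. List genes named are up to 3 per list, comparison and direction with the largest changes among those called, those against a list's majority, and uncalled ones a statement needs. Table columns were matched to samples by group letter and last digit. DESeq2 1.42.0, other scalings, filters and left-out libraries served as alternatives.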

Additional observations from a re-analysis of the deposited data

How the results depend on the processing

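In 17 alternatives (RLE and upper-quartile scaling, no filter on low counts, at least 1 CPM in 3 libraries, a robust fit, a replicate block, only the 6 libraries compared, DESeq2, and each library left out), the 6 genes' changes against control or with SFRP5 kept their direction and side of the threshold, apart from Cebpa and Cebpg with SFRP5 against IL-1β, which were never called and changed sign near 0, and the following. Cebpz with SFRP5 against IL-1β (-0.15, adjusted p = 0.0551) was called under 7 of 17: -0.16 with RLE scaling (adjusted p = 0.0429), -0.16 with at least 1 CPM (0.0487), -0.15 with the robust fit (0.0465), -0.15 with the replicate block (0.0426), -0.15 with only 6 libraries (0.0416), and 2 left-out libraries, within a left-out range of -0.20 to -0.12 (adjusted p 0.0259 to 0.195). Ddit3 with SFRP5 and IL-1β against control (0.03) turned to -0.10 with upper-quartile scaling (adjusted p = 0.0497; range over alternatives -0.10 to 0.06, adjusted p 0.0497 to 0.937). That scaling moved all genes by -0.15 (IL-1β against control) and -0.13 (IL-1β with SFRP5 against control) on the log2 scale. Shares of the 6-gene sum and the order of its genes rest on gene length: 17 of 18 shares moved beyond their SD without it. The cause of these differences was not tested. Libraries with the same number showed no shared deviation. Correlations of deviations were -0.0364 to 0.0402 over 9 same-number pairs and -0.0388 to 0.0554 over 18 different-number pairs. Such values cannot decide whether libraries with the same number share a source, which the labels do not give. With the replicate block 12151, 4780 and 11761 genes were called, against 12227, 4858 and 11828 without it. Depth limits Cebpa most, at 105 to 235 counts per library.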
